A study of Mus musculus with 6 samples.

Results

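The genes described are 10 transcription factors that form the core regulators of heart development: the GATA zinc finger factors Gata4, Gata5 and Gata6, the homeodomain factors Nkx2-5 and Irx4, the T-box factor Tbx5, the basic helix-loop-helix factors Hand1 and Hand2, and the MADS-box factors Mef2a and Mef2c. They were chosen by name as established cardiac regulators and by no rule on their values, although earlier results of these data were known. All 10 were among the 18810 genes of the table. RNA came from the atrioventricular canal region of the heart at embryonic day 15.5, which holds the mitral, tricuspid and aortic valves, in 3 mice without the basic helix-loop-helix factor scleraxis (Scx-/-) and 3 Scx+/+ controls. All samples were of the C57BL/6 strain, the controls were littermates, and none was treated. No cells were sorted, so each value is that of the whole dissected region. Values are RPKM, that is reads scaled to exon length and to depth, and so can be compared between genes.

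The 10 factors bind DNA at short motifs and act together at the enhancers and promoters of genes for contractile proteins, ion handling and cardiac hormones. Nkx2-5, Gata4 and Tbx5 are found as partners on the same genes in heart muscle, and mutations of each cause congenital heart disease. Several also act in valve formation: Gata4 is needed in the endocardium for the endocardial cushions, from which the valves arise, and Tbx5 for septation of the atria. Scx marks tendon progenitors and maturing valve mesenchyme, and it binds the E-box motif (CANNTG), as do Hand1 and Hand2 with their partners.

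Promoter sequences are shown for 4 genes to place genes that varied widely among libraries, or varied together, beside the letters that basic helix-loop-helix and GATA factors bind. Each is the 250 bases before the transcription start in RefSeq (GRCm38.p6), written 5′ to 3′ on the strand of the gene. Capitals mark CANNTG and GATAA or its reverse complement TTATC, and no match overlapped another. Nkx2-5 and Hand2 were high and low in much the same libraries, and Gata5 and Irx4 had wide ranges. The sequences lie at chr17:26841566-26841815 on the minus strand for Nkx2-5, chr8:57320733-57320982 on the plus strand for Hand2, chr2:180334680-180334929 on the minus strand for Gata5 and chr13:73260247-73260496 on the plus strand for Irx4.
Nkx2-5: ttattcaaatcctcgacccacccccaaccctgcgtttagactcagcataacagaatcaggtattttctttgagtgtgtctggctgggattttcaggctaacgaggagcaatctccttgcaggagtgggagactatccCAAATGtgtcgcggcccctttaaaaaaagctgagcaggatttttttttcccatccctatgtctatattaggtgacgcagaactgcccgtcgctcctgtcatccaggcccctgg
Hand2: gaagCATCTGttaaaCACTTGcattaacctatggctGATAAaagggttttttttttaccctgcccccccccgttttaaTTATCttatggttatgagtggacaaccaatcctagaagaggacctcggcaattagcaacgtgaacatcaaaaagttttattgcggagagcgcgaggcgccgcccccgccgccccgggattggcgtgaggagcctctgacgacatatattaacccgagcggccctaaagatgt
Gata5: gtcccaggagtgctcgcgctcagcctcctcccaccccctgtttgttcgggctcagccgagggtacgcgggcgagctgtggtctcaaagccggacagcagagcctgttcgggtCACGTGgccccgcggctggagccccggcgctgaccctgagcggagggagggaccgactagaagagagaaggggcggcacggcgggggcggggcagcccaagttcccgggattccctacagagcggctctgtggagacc
Irx4: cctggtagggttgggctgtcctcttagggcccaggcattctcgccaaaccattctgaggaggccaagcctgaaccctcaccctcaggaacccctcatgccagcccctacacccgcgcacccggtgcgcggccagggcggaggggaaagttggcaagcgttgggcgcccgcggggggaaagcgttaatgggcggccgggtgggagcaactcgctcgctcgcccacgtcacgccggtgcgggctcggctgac

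The E-box letters of Gata5 are CACGTG, that of Nkx2-5 is CAAATG, and Hand2 has CATCTG and CACTTG. The Irx4 stretch holds neither motif, and Hand2 alone of the 4 holds the GATA letters, once on each strand. Of the 32851 promoter stretches of the same length, 66.2% hold an E-box and 22.6% the GATA letters, so these matches describe the sequence and do not mark binding sites. Promoters were counted for 6 of the 10 genes (8 stretches), of which 5 hold an E-box and 2 the GATA letters. Stretches on chromosome 18, where Gata6 lies, were left out of these counts, and none of Gata4, Tbx5 or Hand1 was counted.

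All libraries were deep, at 46429934 to 68571046 reads, the depth that RPKM and exon length imply. Scx+/+ replicate 2 stood apart: the 10 genes with most RPKM took 56.9% of its total, against 30.7% to 43.9% in the other 5 libraries, and 2252 of its values were at the common low value of 0.0949 RPKM that the authors filled in, against 1088 to 1465 elsewhere. Xist was at 21.7 and 12.7 RPKM in replicate 2 of Scx-/- and Scx+/+ and at the fill-in value in the other 4 libraries, so each genotype holds libraries of both sexes. The RPKM of Scx is that of the whole gene, in which the deleted part cannot be read, so it does not check the labels: it was 33.6, 18.6 and 82.9 RPKM in the libraries labelled Scx-/- and 29.5, 58.3 and 26.0 RPKM in those labelled Scx+/+. Cardiomyocyte transcripts were abundant in every library, the 10 cardiomyocyte marker genes summing to 12271 to 20480 RPKM, although the region was dissected to keep myocardium low. In such bulk tissue, fewer cells of a type and less RNA per cell cannot be told apart.

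The genes spanned a wide range of levels. Mef2a was the most abundant at a mean of 43.4 RPKM over the 6 libraries, which put it above 90.3% of the genes in the table, and Hand1 was the least abundant at 0.311 RPKM, above 7.22% of them. In between lay Gata6 at 19.0, Mef2c at 18.2, Hand2 at 9.36, Gata4 at 8.24, Irx4 at 7.73, Nkx2-5 at 5.71, Tbx5 at 1.64 and Gata5 at 0.996 RPKM. Among the 9 neighbouring pairs in this order, Gata6 was above Mef2c in 3 of 6 libraries, Hand2 above Gata4 in 5 of 6 and Gata4 above Irx4 in 3 of 6, and the mean log2 ratio of each of these pairs was smaller than its SD over libraries. In the other 6 pairs the more abundant gene was higher in 6 of 6 libraries and the mean log2 ratio exceeded its SD.

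**Figure D1:**
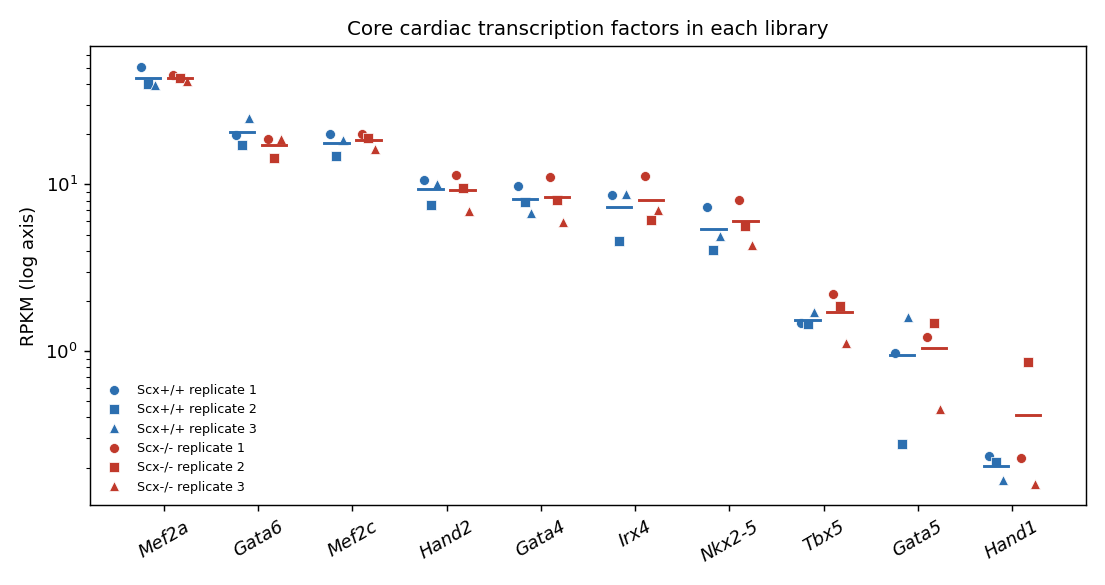
RPKM of each gene (log axis) in each library, with Scx+/+ in blue and Scx-/- in red. Marker shape gives the replicate number, which the labels do not describe as a pairing, and horizontal lines are the means of 3 libraries. The libraries of both genotypes overlap for all 10 genes, and Hand1 in Scx-/- replicate 2 (0.860 RPKM) stands above its other 5 values.

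None of the 10 genes passed the test of the difference between genotypes. Values are given below for replicates 1, 2 and 3 in turn, and fold changes are Scx-/- minus Scx+/+ on the log2(RPKM + 0.1) scale from limma, with standard errors over 3 and 3 libraries. The threshold for calling a gene was the study's, an unadjusted p of 0.05, which 731 of the 18810 genes tested passed (3.89%: 2.82% higher and 1.06% lower in Scx-/-), so that 0 of 10 is near the background. The count was also 0 of 10 with library medians set to 0 (3.43% of all genes, 1.49% higher and 1.94% lower), after quantile normalization (3.75%, 1.87% higher and 1.88% lower) and by analysis of variance (4.58%), so the excess of higher over lower calls among all genes rests on the scaling. No gene of the table passed after Benjamini-Hochberg adjustment in limma, where the smallest adjusted p was 0.173, and 1 passed by analysis of variance. The groups overlapped for all 10 genes, while they did not overlap for 9.5% of all genes.

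GATA factors. Gata4 (ENSMUSG00000021944, mm9 chr14:63817759-63890529) was at 11.1, 8.08 and 5.92 RPKM in Scx-/- samples and at 9.79, 7.83 and 6.76 RPKM in controls. Replicate 1 was highest in both genotypes, and the log2 fold change was 0.01 (SE 0.26). Gata5 (ENSMUSG00000015627, chr2:180059838-180069404), which acts in the endocardium, was low and uneven at 1.22, 1.47 and 0.450 RPKM against 0.971, 0.276 and 1.59 RPKM. Its values rested on 42 to 358 reads and differed 5.77-fold between the highest and the lowest library, and its log2 fold change of 0.25 (SE 0.63) has a 95% interval from -1.19 to 1.68. Gata6 (ENSMUSG00000005836, chr18:11052508-11085633), which acts in the outflow tract and vascular smooth muscle, was at 18.8, 14.4 and 18.7 RPKM against 19.9, 17.3 and 24.9 RPKM. It was the most reduced of the 10 genes, at a log2 fold change of -0.25 (SE 0.20, 95% interval -0.70 to 0.20, unadjusted p = 0.241 and adjusted p = 0.967 in limma, n = 3 and 3). Exons of Gata5 and Gata6 share 258 and 58 bases with genes on the opposite strand (Gm14318 and 1010001N08Rik), which is 7.87% and 1.82% of their exon length, and whether the counting used strand is not given in the sources used here.

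Homeodomain and T-box factors. Nkx2-5 (ENSMUSG00000015579, chr17:26975609-26978510), an early marker of the cardiac lineage, was at 8.03, 5.64 and 4.31 RPKM in Scx-/- samples and 7.31, 4.03 and 4.92 RPKM in controls, a log2 fold change of 0.14 (SE 0.30). Irx4 (ENSMUSG00000021604, chr13:73397945-73407068), which marks ventricular myocardium, was at 11.2, 6.08 and 7.05 RPKM against 8.69, 4.60 and 8.74 RPKM, a change of 0.15 (SE 0.32). The highest Irx4 value was that of Scx-/- replicate 1, the library in which Nkx2-5 was also highest. Tbx5 (ENSMUSG00000018263, chr5:120284672-120335227), the factor mutated in Holt-Oram syndrome, was at 2.19, 1.87 and 1.12 RPKM against 1.48, 1.45 and 1.71 RPKM, a change of 0.10 (SE 0.33). Its controls lay close together (SD 0.139 RPKM) and inside the range of the Scx-/- samples (SD 0.549 RPKM).

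Basic helix-loop-helix factors. Hand2 (ENSMUSG00000038193, chr8:59799780-59803314), needed for the right ventricle and cushion development, was at 11.4, 9.54 and 6.94 RPKM against 10.7, 7.56 and 10.1 RPKM, a log2 fold change of -0.04 (SE 0.24). Hand1 (ENSMUSG00000037335, chr11:57642207-57646320), a gene of the left ventricle and outflow tract, was close to the limit of the table at 0.230, 0.860 and 0.159 RPKM against 0.234, 0.216 and 0.168 RPKM. The value of Scx-/- replicate 2 rests on 115 reads and the other 5 on 19 to 28 reads. Its log2 fold change of 0.51 (SE 0.65, 95% interval -0.95 to 1.98) became -0.06 without that library. Hand2 exceeded Hand1 in 6 of 6 libraries.

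MADS-box factors. Mef2a (ENSMUSG00000030557, chr7:74376049-74517744) and Mef2c (ENSMUSG00000005583, chr13:83643033-83806684), which drive contractile genes and are held in check by class II histone deacetylases, were the steadiest of the 10. Mef2a was at 45.0, 43.5 and 41.5 RPKM in Scx-/- samples and 50.8, 40.0 and 39.6 RPKM in controls, and Mef2c at 20.1, 19.1 and 16.2 RPKM against 20.2, 14.9 and 18.5 RPKM. Their values rested on 5107 to 19299 reads. The log2 fold changes were 0.00 (SE 0.16) for Mef2a and 0.06 (SE 0.18) for Mef2c, with 95% intervals of -0.37 to 0.38 and -0.36 to 0.47.

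**Figure D2:**
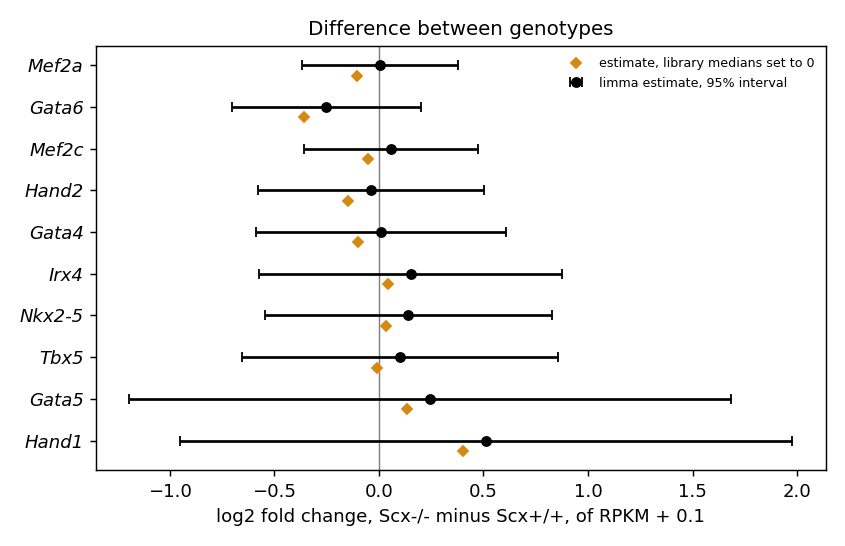
Log2 fold change of RPKM + 0.1 between Scx-/- and Scx+/+ for each gene. Black points and bars are limma estimates with 95% intervals over 3 and 3 libraries, and orange diamonds are the estimates with library medians set to 0. Every interval spans 0, from the narrowest, Mef2a (-0.37 to 0.38), to the widest, Hand1 (-0.95 to 1.98).

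The 10 unadjusted p-values in limma ran from 0.241 to 0.977 and the adjusted ones from 0.967 to 1.0. Exact permutation tests of the difference in mean log2 value, two-sided, gave 0.4 to 1, where 3 against 3 cannot go below 0.1. The intervals of 8 of 10 genes lay within a 2-fold change in either direction, those of Gata5 and Hand1 being wider. The fold changes of 8 of 10 genes were above 0, against 63.8% of all genes, and their median was 0.08 against 0.10 for all genes. With library medians set to 0, which takes away that shift, 4 of 10 were above 0 and their median was -0.03. Mef2a, Mef2c, Gata4 and Tbx5 changed sign. Every interval of the 10 genes spans 0, so no direction can be given for any of them. No setting tried brought any of the 10 under the threshold, the lowest unadjusted p in limma or the analysis of variance being 0.0967.

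Ratios within the families were compared because relatives can bind the same motif; these 5 ratios were chosen after the values were seen. The Gata4 to Gata6 ratio was 0.587, 0.560 and 0.316 in Scx-/- samples and 0.491, 0.453 and 0.271 in controls. The Mef2a to Mef2c ratio ran from 2.14 to 2.69 over all libraries. None of the ratios Gata4 to Gata6, Gata5 to Gata6, Gata4 to Gata5, Hand1 to Hand2 and Mef2a to Mef2c separated the genotypes, and exact permutation p-values of the 5 were 0.5 to 0.8.

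Several of the genes were high or low in the same libraries. Scx-/- replicate 1 held the highest value of 5 of the 10 genes (Gata4, Irx4, Nkx2-5, Tbx5 and Hand2), all 5 among the 8 factors averaging 1 RPKM or more. Of all 13827 genes at that level, 30.1% were highest there, and their median log2 ratio to the mean over libraries was 0.15 in that library. Scx-/- replicate 3 and Scx+/+ replicate 2 held the lowest value of 4 of the 10 genes each, against 15.9% and 26.9% of all genes at that level. These counts include Hand1 in Scx-/- replicate 3 and Gata5 in Scx+/+ replicate 2, which average below 1 RPKM. Neither library held the highest value of any factor, against 13.2% and 20.5%. These 2 libraries were singled out from the values of the 10 genes, so the counts for them are a description. Of the 8 factors averaging 1 RPKM or more, 6 were lowest in either of them, as were 42.9% of all genes at that level, and 4 (Mef2c, Hand2, Nkx2-5 and Tbx5) had them as the lowest pair, as did 19.5%. The median SD of log2 values over the 6 libraries was 0.30 for these 8 factors and 0.31 for all genes at that level.

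**Figure D3:**
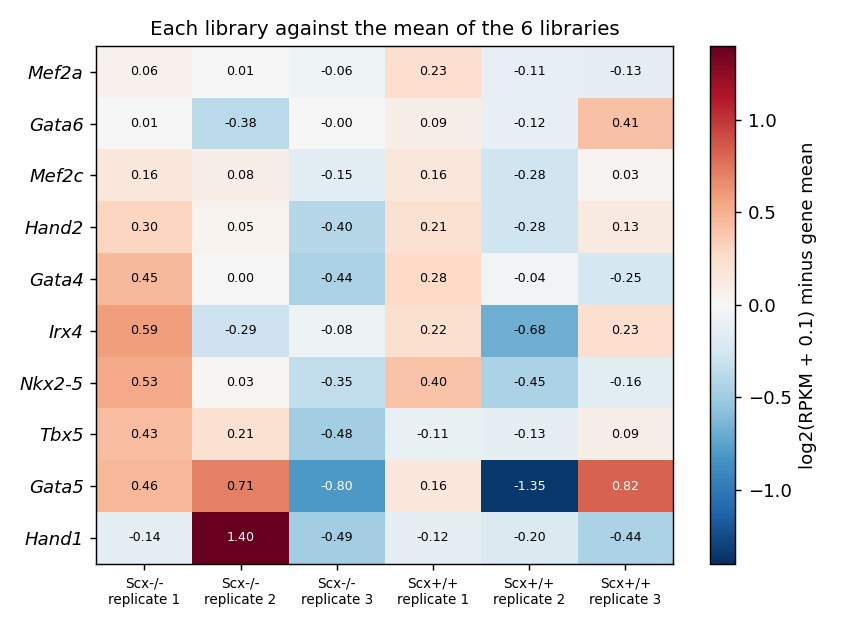
Difference of each library from the mean of the 6 libraries, in log2(RPKM + 0.1), for each gene. Red is above and blue below that mean. Scx-/- replicate 1 is above it for all genes other than Hand1 (-0.14), and Scx-/- replicate 3 and Scx+/+ replicate 2 are below it for all 10.

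The libraries in which the factors were low had the highest sums of cardiomyocyte markers, although not of every marker. The summed RPKM of the 10 factors was 102 in Scx-/- replicate 3 and 98.1 in Scx+/+ replicate 2, against 111 to 130 in the others, whereas the 10 cardiomyocyte markers summed to 18947 and 20480 RPKM in the same pair, against 12271 to 15935 elsewhere. The pair held the 2 highest values of 6 of these 10 markers (Tnnt2, Tnni3, Tnnc1, Actc1, Myh6 and Pln) but not of Myh7, Actn2, Ryr2 or Ttn, and Ttn was lowest in Scx+/+ replicate 2 at 92.4 RPKM against 152 to 200 in the other 5 libraries. Per 1000 RPKM of cardiomyocyte marker, Nkx2-5 was at 0.504, 0.440 and 0.228 in Scx-/- samples and 0.507, 0.197 and 0.401 in controls, a 2.58-fold range. Irx4 widened from 2.44-fold to 3.17-fold on that scale. The part of tissue makeup in these differences was not tested.

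**Figure D4:**
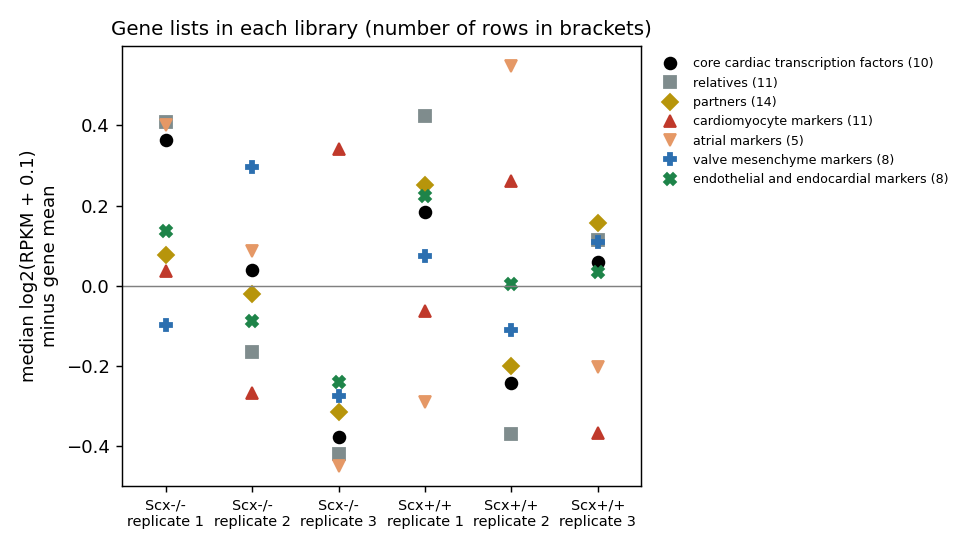
Median over each gene list of log2(RPKM + 0.1) minus the mean over libraries of each gene, by library, with the number of table rows in brackets. The 10 factors (black) are lowest in Scx-/- replicate 3 (-0.38) and Scx+/+ replicate 2 (-0.24), where the cardiomyocyte markers (red) are at 0.34 and 0.26.

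Of 18 relatives of these factors (other GATA, T-box, Mef2, Iroquois and NK2 or LIM homeodomain genes), 11 are in the table, and 0 of 11 were called, near the 3.89% of all genes. Their median log2 fold change was -0.13. The most abundant was Tbx20, which acts in cushion and myocardial growth, at 53.4, 62.9 and 35.4 RPKM in Scx-/- samples and 61.0, 34.5 and 52.6 RPKM in controls. Tbx18, an epicardial gene, was at 9.79, 10.3 and 5.52 against 8.01, 4.44 and 7.96 RPKM. Both were lowest in Scx-/- replicate 3 and Scx+/+ replicate 2. The groups of 2 of the 11 relatives did not overlap, against 9.5% of all genes, and neither was called. Irx3 was at 0.567, 0.994 and 0.709 RPKM against 1.66, 1.33 and 1.02 RPKM, with a log2 fold change of -0.75 (SE 0.38), an unadjusted p of 0.0774 and an adjusted p of 0.967 in limma. Mef2d was at 3.04, 2.30 and 2.16 against 3.19, 3.10 and 4.14 RPKM, and its log2 fold change of -0.46 (SE 0.26) had an unadjusted p of 0.108 and an adjusted p of 0.967 in limma.

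Of 13 cofactors and partners, which hold 14 table rows because Hdac4 has 2 identifiers, 0 were called, again near the 3.89% of all genes, and their median log2 fold change was -0.16. Hopx, an atypical homeodomain protein that binds serum response factor, was at 68.9, 49.9 and 84.7 RPKM in Scx-/- samples and 57.0, 85.2 and 52.6 RPKM in controls, and was thus highest in the 2 libraries in which the factors were low. Srf itself was at 11.2, 9.57 and 8.15 against 10.3, 11.1 and 7.13 RPKM. Myocd, the coactivator of Srf, was at 7.79, 6.01 and 7.67 against 9.72, 8.12 and 11.6 RPKM. Its groups did not overlap, which held for 1 of the 14 rows and 9.5% of all genes. The log2 fold change of Myocd was -0.44 (SE 0.21), with an unadjusted p of 0.0646 and an adjusted p of 0.967 in limma. Without Scx+/+ replicate 2 Myocd passed the threshold, with a log2 fold change of -0.57 (unadjusted p = 0.0258 in limma). In that fit 3 partners were called lower (Ep300, Myocd and Zfpm2), and 1549 of the 18810 genes were called, 468 of them lower. Over all 6 libraries the log2 fold change of Ep300 was larger, at -0.73 (SE 0.34, unadjusted p = 0.0599 in limma), with overlapping groups.

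A further list held 25 genes taken as myocardial targets of these factors, among them contractile, calcium handling and hormone genes (26 rows, Tnnc1 having 2 identifiers). Their median log2 fold change was 0.05. Of these genes 1 was called lower, against 1.06% of all genes called in that direction (1.94% with library medians set to 0 and 1.88% after quantile normalization). It was Ryr2, the calcium release channel of the sarcoplasmic reticulum, at 34.3, 31.7 and 44.2 RPKM in Scx-/- samples and 49.3, 45.8 and 55.9 RPKM in controls. Its log2 fold change was -0.46 (SE 0.18, unadjusted p = 0.0308, adjusted p = 0.967 in limma), and the call was lost when any of 4 libraries was left out (replicates 1 and 2 of Scx-/-, and replicates 1 and 3 of Scx+/+), without both libraries numbered 2, and in limma without an intensity trend. The 3 most abundant targets were highest in Scx-/- replicate 3 and Scx+/+ replicate 2, which does not hold for every target: Myh7, the next in level, was at 2313, 1923 and 2148 RPKM against 2824, 2826 and 2380 RPKM. Its log2 fold change was -0.33 (SE 0.31, unadjusted p = 0.316 in limma). The groups of Myh7 and Ryr2 did not overlap, which held for 2 of the 26 rows and 9.5% of all genes. Myl2 was at 8364, 7247 and 11262 RPKM in Scx-/- samples and 6299, 11635 and 5910 RPKM in controls, with a log2 fold change of 0.22 (SE 0.53). Tnnt2 was at 5259, 4116 and 6694 against 4167, 6056 and 3539 RPKM, a change of 0.23 (SE 0.44), and Actc1 at 2978, 2294 and 3016 against 2568, 3140 and 2011 RPKM, a change of 0.12 (SE 0.35).

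Each marker list is summed as RPKM over its genes, with 1 row for each gene. The ventricular list summed to 10756 to 15769 in Scx-/- samples and 9948 to 17755 in controls, the atrial list to 1128 to 1922 and 1264 to 2411, and the cardiomyocyte list to 12810 to 18947 and 12271 to 20480, of which Ryr2 was the only gene called among these 3 lists. Valve mesenchyme (8 genes, among them Postn, Sox9 and Scx itself) summed to 417 to 609 and 383 to 481 RPKM, with 0 called. Scx enters that sum with its whole-gene value, which was 82.9 RPKM in Scx-/- replicate 3, where the sum was 609. Endothelial and endocardial genes summed to 116 to 132 and 111 to 129, with 0 of 8 called. Smooth muscle (475 to 669 and 444 to 539), erythroid (4722 to 7014 and 3865 to 6942) and macrophage genes (5.35 to 11.3 and 4.73 to 8.38) had 0 called. Of the epicardial genes, 3 of 6 were called higher in Scx-/- samples (Tcf21, Upk1b and Aldh1a2; unadjusted p of 0.0225, 0.0378 and 0.0430, adjusted p of 0.967 in limma), against 2.82% of all genes, with sums of 30.3 to 39.8 against 25.2 to 28.2 RPKM. All 3 of these calls were lost with library medians set to 0, and Aldh1a2 kept its call in 1 of 6 fits that left out a library. Of the 3 neural crest glia and melanocyte genes with a row in the table, among which Sox10 is not, 2 (Mlana and Dct) were called higher (unadjusted p of 0.0187 and 0.0360, adjusted p of 0.967 in limma), against 2.82% of all genes. Only 1 of the 3 averaged 1 RPKM or more, and the sums were 3.86 to 6.24 against 1.85 to 2.89 RPKM. Mlana is at the fill-in value in all 3 controls, and the call of Dct was lost with library medians set to 0, under a replicate block and in 4 of 6 fits that left out a library. Tbx18, which is in both the epicardial list and the relatives, had a log2 fold change of 0.32 (SE 0.32). Whether these marker values reflect a difference in tissue makeup, or bear on the 10 factors, was not tested.

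The genes with the most similar profile over the 6 libraries are given as a description, since the points share library and depth. By Pearson correlation of log2(RPKM + 0.1) among genes averaging 1 RPKM or more, the 3 nearest to each of the 8 factors at that level had r from 0.956 to 0.999. They were Gm12502, Gm11632 and Gm15900 for Mef2a, Vps13d, Galc and mt-Te for Gata6, Gpr137b-ps, Usp19 and Ints5 for Mef2c, and Pan2, Pole and Lmnb1 for Hand2. For Gata4 they were Prkag2, Mmrn2 and Cdkn1b, for Irx4 Ppp4c, 0610007L01Rik and Mbd3, for Nkx2-5 Ap2a2, Itfg2 and E430025E21Rik, and for Tbx5 Hba-x, Fan1 and Morf4l1. No factor was among the 3 nearest genes of another.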

How the data were processed

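RNA of 6 dissected atrioventricular canal regions was sequenced on an Illumina HiSeq. Per the labels and methods, the authors aligned reads with TopHat 1.4.1 to mm9, counted reads in Ensembl exons with easyRNASeq and deposited RPKM, normalized for exon length and depth; genes with few reads in every library were removed and low values set to a common one, 0.0949 in the table. Reads were recovered here from RPKM and GENCODE exon length, whole within 0.1 read for 98.45% to 98.57% of values under 1000 reads, and served only to describe depth; no count test was run.

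The test was that of limma (version 3.58.1, R 4.3.3), applied to log2(RPKM + 0.1) of all 18810 genes with Benjamini-Hochberg adjustment, a trend of variance on intensity and no covariates; folds on this scale understate those of low genes. Python 3.11.15 with numpy 2.4.6, pandas 2.3.3 and matplotlib 3.10.9 did the rest. Named are the 10 factors, genes called and the 3 most abundant of each list, the 3 genes nearest to each factor, and Scx. Irx3, Mef2d, Myocd, Ep300, Zfpm2, Myh7, Ttn, Xist and the called marker genes were added after their values were seen. The 10 factors and the lists (relatives, partners, targets and cell type markers) were chosen with earlier results of these data known. The labels do not say more of the replicates than their number, so p-values measure the spread between these samples. Alternatives were pseudocounts of 0.01 and 1, a minimum mean of 1 RPKM, limma without a trend, analysis of variance, quantile normalization, library medians set to 0, a replicate block, and libraries left out. The fit was first tested on simulated data.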

Additional observations from a re-analysis of the deposited data

How the results depend on the processing

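Of the 10 factors, 0 were called under any of the 16 alternatives, and 36 of 158 fold changes of the factors under these alternatives changed sign, 0 of them for Gata6. Values below are log2 fold changes, Scx-/- minus Scx+/+, and the cause of a change was not tested. With quantile normalization, Mef2a was at -0.13, Mef2c at -0.073, Gata4 at -0.081, Tbx20 at -0.10, Hopx at -0.038 and Srf at -0.047. With library medians set to 0, Mef2a was at -0.10, Mef2c at -0.053, Gata4 at -0.10, Tbx5 at -0.0077, Tbx20 at -0.076, Hopx at -0.048 and Srf at -0.074. Without both libraries numbered 2, Mef2a was at -0.053, Mef2c at -0.10, Gata4 at -0.0068, Nkx2-5 at -0.026, Tbx5 at -0.018, Gata5 at -0.66, Hand1 at -0.032, Tbx18 at -0.12 and Tbx20 at -0.38. Without Scx-/- replicate 3 and Scx+/+ replicate 2, an alternative chosen after seeing the data, Mef2a was at -0.019, Hand2 at 0.0053 and Irx4 at -0.075.

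Leaving out each library in turn gave ranges of -0.057 to 0.12 for Mef2a, -0.37 to -0.11 for Gata6, -0.069 to 0.15 for Mef2c, -0.20 to 0.16 for Hand2, -0.21 to 0.23 for Gata4, -0.15 to 0.33 for Irx4, -0.090 to 0.38 for Nkx2-5, -0.086 to 0.37 for Tbx5, -0.37 to 0.72 for Gata5, -0.058 to 0.89 for Hand1, -0.20 to 0.27 for Tbx20, -0.12 to 0.27 for Hopx, -0.16 to 0.16 for Srf and -0.051 to 0.27 for Actc1.

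The relatives called were 0 as reported, 1 without the trend (Irx3), 1 with quantile normalization (Mef2d), 2 with medians set to 0 (Irx3 and Mef2d), 1 without Scx-/- replicate 3 and Scx+/+ replicate 2 (Irx5), and 0 to 1 with each library left out. The partners called were 2 with quantile normalization and 2 with medians set to 0 (Ep300 and Myocd, lower), 1 without both libraries numbered 2 (Hopx, higher), 2 without Scx-/- replicate 3 and Scx+/+ replicate 2, and 0 to 3 with each library left out, 3 being without Scx+/+ replicate 2. The targets called were 0 without the trend, 2 by analysis of variance (Myh7 and Ryr2), 3 without both libraries numbered 2 (Gja1, Smyd1 and Tnni3, all higher, and not Ryr2), 3 without Scx-/- replicate 3 and Scx+/+ replicate 2 (Nppa and Nppb higher, Ryr2 lower), and 0 to 2 with each library left out. Over all 18810 genes, 731 calls became 645 without the trend, 705 with quantile normalization, 646 with medians set to 0 and 862 by analysis of variance. They became 539 to 1549 with each library left out, 1549 being without Scx+/+ replicate 2 (1081 higher and 468 lower). Without both libraries numbered 2 they became 1704 (1226 higher and 478 lower). Without Scx-/- replicate 3 and Scx+/+ replicate 2 they became 1587 (1139 higher and 448 lower).

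The labels do not say whether replicate numbers pair the samples. Deviations of same-numbered libraries correlated at 0.092, -0.22 and -0.19, which with so few libraries cannot exclude a pairing. The libraries numbered 2 are the ones with Xist, so leaving both out removes every library with Xist. With a replicate block, 0 factors, 0 relatives, 0 partners and 2 targets (Bmp10 and Ryr2) were called, and 573 genes of all. Depth limits Hand1 (19 to 115 reads) and Gata5 (42 to 358 reads) most.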
